A study of Sus scrofa with 8 samples.

Results

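The genes described here are carbonic anhydrases and the carriers and channel that move bicarbonate and chloride across epithelia, chosen by symbol because of their bearing on acid-base balance in reservoirs made of ileum. Of the 10 genes listed (CA1, CA2, CA4, CA9, CA12, SLC26A3, SLC26A6, SLC4A4, CFTR and SLC4A2), 9 were found among the 31907 gene rows, and 8 of these were among the 16549 genes with enough counts to be tested. CA9 was not analysed here, and CA1 had too few counts for a test.

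Carbonic anhydrases interconvert carbon dioxide and water with bicarbonate and protons, and so supply substrate to the transporters beside them. In the ileum, apical exchangers take up luminal chloride in return for bicarbonate, and the channel CFTR lets chloride and bicarbonate out. When ileum is used as a urinary reservoir, chloride and ammonium of urine can be absorbed and bicarbonate lost, which is the known background of hyperchloraemic acidosis after such surgery. Urothelium, the lining of the normal bladder, is in contrast a tight barrier.

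RNA was sequenced from tissue of Guizhou minipigs, a strain of small pig, aged 8 months. The series title describes placing the animal's own peritoneum as a mucosal replacement in a neobladder, a urinary reservoir made of ileum. There were 4 groups of 2 libraries: mucosa of the experimental neobladder (MN-Exp), mucosa of the control neobladder (MN-Ctrl), normal peritoneum (NP) and mucosa of the normal bladder (MNB), here called native bladder. How the control reservoir was lined, the time from surgery to sampling, and whether the libraries of a group came from separate animals are not given in the sources used here, so p-values measure only the spread between these samples, which may be technical.

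Library totals ran from 7.94 to 11.88 M counts. Levels are given as counts per M (CPM) after scaling between libraries by the trimmed mean of M-values (TMM), with factors of 1.09 to 1.24 outside the control neobladder, whose libraries had 0.839 and 0.449. On this scale 3 counts in a library equal 0.224 to 0.562 CPM, a limit that covers counting error only. Tissue labels were set against marker genes. The summed level of 8 urothelial genes was 4479 and 8607 CPM in experimental neobladder, 70.7 and 179 CPM in control neobladder, 530.4 and 975 CPM in peritoneum, and 10001 and 8950 CPM in native bladder. In replicates 1 and 2, the sum of 10 enterocyte genes was 194 and 211 CPM in experimental neobladder, and 48339 and 166530 CPM in control neobladder. That sum was 845 and 763 CPM in peritoneum, and 170 and 231 CPM in native bladder. In peritoneum the urothelial sum was mostly UPK1B and KRT7, at means of 441 and 259 CPM. UPK1A was at 0 there, and UPK2 and UPK3A had means of 0.961 and 5.82 CPM. The peritoneal enterocyte sum was mostly APOA1, at a mean of 685 CPM. Only 4 of 7 mesothelial genes were found, of which CALB2 and KLK11 were at 0 in both peritoneum libraries, and their sum was 30.5 and 30.2 CPM in peritoneum and at most 0.374 CPM elsewhere. In such bulk tissue, fewer cells of a type and less RNA per cell cannot be told apart.

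**Figure D1:**
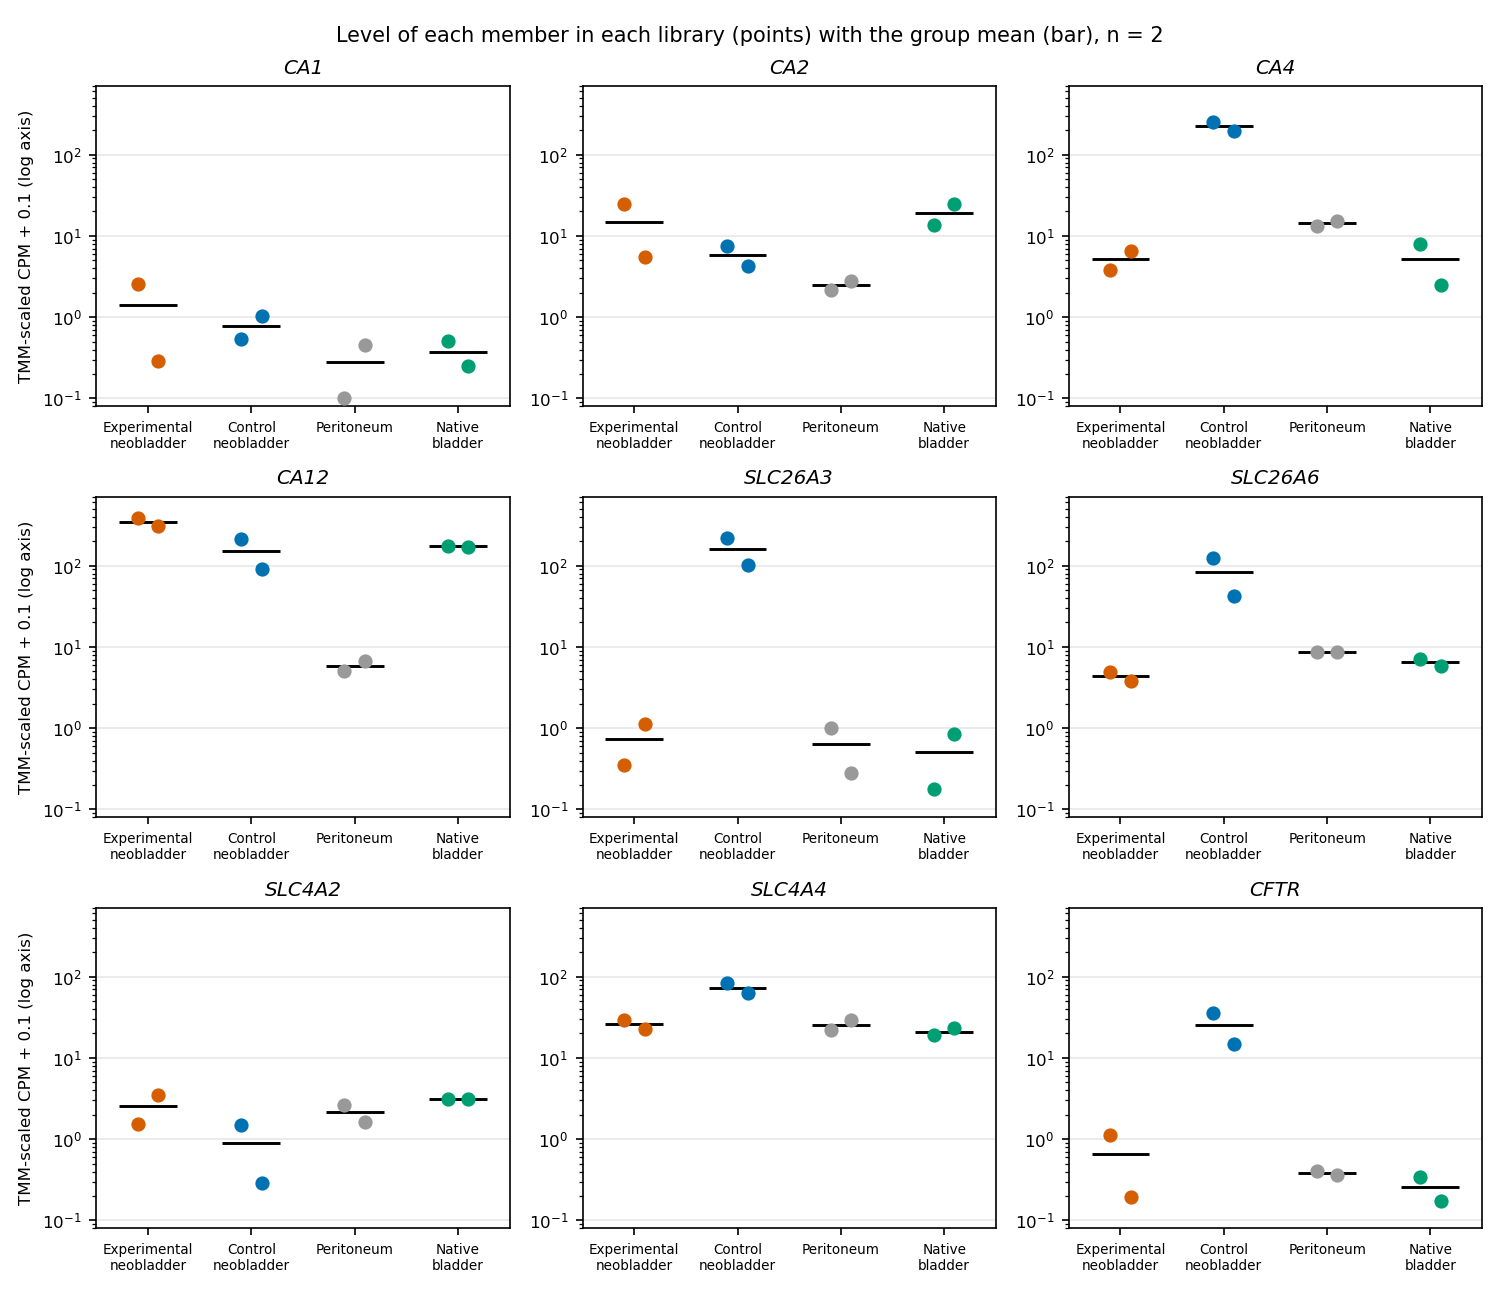
Level of each of the 9 genes in each library, as TMM-scaled CPM plus 0.1 on a log axis, with experimental neobladder, control neobladder, peritoneum and native bladder from left to right, points for libraries and a bar for the mean of 2. CA4, SLC26A3, SLC26A6, SLC4A4 and CFTR stood highest in both control neobladder libraries, while CA12 was at 4.99 and 6.59 CPM in peritoneum and above 91 CPM elsewhere.

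The first question was how these genes differed between the mucosa of the experimental and the control neobladder. The membrane enzyme CA4, the apical exchangers SLC26A3 and SLC26A6, the channel CFTR and the bicarbonate cotransporter SLC4A4 were all lower in the experimental neobladder, by 44.5-fold, 253-fold, 19.5-fold, 44.1-fold and 2.82-fold. CA2, CA12 and SLC4A2 did not pass the test, and each had a higher mean in the experimental neobladder. Thus 5 of 8 tested genes were called lower and 0 higher at an adjusted p under 0.05 by edgeR's quasi-likelihood test with Benjamini-Hochberg adjustment, where 11.3% of all tested genes were called lower and 10.4% higher. The median log2 fold change of the 8 was -2.89, against 0.11 for all tested genes. SLC26A3 and CFTR had 4 to 14 counts per group outside the control neobladder. CFTR passed the filter on low counts through the control libraries alone, so it had to differ.

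Among the enzymes, CA4 is anchored to the outer face of the cell membrane and works at the lumen of several epithelia (ENSSSCG00000023186, chromosome 12, 37962951 to 37972443 in Sscrofa11.1, a span shared with 1 long noncoding RNA gene). CA4 was at 3.73 and 6.40 CPM in experimental neobladder, 252 and 198 CPM in control neobladder, 13.1 and 15.3 CPM in peritoneum, and 7.75 and 2.39 CPM in native bladder. The control neobladder libraries stood far above the other 6, peritoneum came next, and the ranges of experimental neobladder and native bladder overlapped. Experimental against control neobladder gave a log2 fold change of -5.47 (SE 0.607, adjusted p = 0.000225).

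CA12 is a transmembrane enzyme with its catalytic part outside the cell (ENSSSCG00000004565, chromosome 1, 108649277 to 108710658, overlapping APH1B and a long noncoding RNA gene). CA12 was at 383 and 310.4 CPM in experimental neobladder, 210.4 and 91.6 CPM in control neobladder, 4.99 and 6.59 CPM in peritoneum, and 177 and 168 CPM in native bladder. Both experimental libraries stood above all others, the native bladder lay within the range of the control neobladder, and peritoneum was far below. Experimental against control neobladder gave a log2 fold change of 1.20 (SE 0.448) with adjusted p = 0.0821, which missed the threshold although the libraries did not overlap. It passed in DESeq2 (adjusted p = 0.0478) and without control replicate 1 (log2 fold change 1.95, adjusted p = 0.000251).

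CA2 is the cytosolic enzyme of high activity found in many acid-base transporting cells (ENSSSCG00000006140). CA2 was at 24.4 and 5.47 CPM in experimental neobladder, 7.40 and 4.12 CPM in control neobladder, 2.04 and 2.67 CPM in peritoneum, and 13.7 and 24.6 CPM in native bladder. The experimental libraries lay far apart and overlapped with both control neobladder and native bladder, while peritoneum was lowest. Experimental against control neobladder gave a log2 fold change of 1.36 (SE 0.666, adjusted p = 0.170), which was -0.069 without experimental replicate 1.

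CA1, the cytosolic enzyme abundant in red blood cells (ENSSSCG00000040770), had 29 and 2 counts in experimental neobladder, 4 and 5 in control neobladder, 0 and 4 in peritoneum, and 5 and 2 in native bladder. Only experimental replicate 1 held more than a few counts.

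SLC26A3 is the apical chloride-bicarbonate exchanger of the intestine, whose loss in people causes congenital chloride diarrhoea (ENSSSCG00000021813, chromosome 9, 107480629 to 107518771). SLC26A3 had 3 and 11 counts (0.254 and 1.02 CPM) in experimental neobladder, 2018 and 551 counts (219.7 and 103 CPM) in control neobladder, 9 and 2 counts (0.917 and 0.178 CPM) in peritoneum, and 1 and 10 counts (0.0808 and 0.747 CPM) in native bladder. It was near the limit of counting in 6 libraries and clearly detected in both of the control neobladder. The log2 fold change of experimental over control neobladder was -7.98 (SE 0.922, adjusted p = 0.000285).

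SLC26A6 is an apical exchanger that carries chloride, bicarbonate and oxalate (ENSSSCG00000011361, chromosome 13, 31319287 to 31330649). SLC26A6 was at 4.75 and 3.71 CPM in experimental neobladder, 123 and 42.5 CPM in control neobladder, 8.66 and 8.47 CPM in peritoneum, and 7.03 and 5.75 CPM in native bladder. The 4 groups did not overlap, and the experimental neobladder stood lowest. Against the control neobladder its log2 fold change was -4.29 (SE 0.541, adjusted p = 0.000447). Its differences from native bladder (log2 fold change -0.59, adjusted p = 0.899) and from peritoneum (-1.01, adjusted p = 0.164) missed the threshold.

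SLC4A2 exchanges chloride for bicarbonate at the basolateral membrane of many epithelia (ENSSSCG00000021475, chromosome 18, 6149459 to 6166622). SLC4A2 had 17 and 37 counts (1.44 and 3.43 CPM) in experimental neobladder, 13 and 1 counts (1.42 and 0.187 CPM) in control neobladder, 25 and 17 counts (2.55 and 1.51 CPM) in peritoneum, and 37 and 40 counts (2.99 and 2.99 CPM) in native bladder. Its counts were low throughout, and it was called in none of the 6 comparisons by edgeR with all libraries, though without control replicate 1 it was lower in control neobladder than in native bladder (adjusted p = 0.0391). The log2 fold change of experimental over control neobladder was 1.48 with an interval (95%) from -0.53 to 3.49 (adjusted p = 0.267).

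SLC4A4 carries sodium with bicarbonate, in many epithelia across the basolateral membrane into the cell (ENSSSCG00000008943, chromosome 8, 67768955 to 68177213, a span shared with 1 long noncoding RNA gene). SLC4A4 was at 29.0 and 22.5 CPM in experimental neobladder, 82.5 and 62.8 CPM in control neobladder, 21.8 and 29.1 CPM in peritoneum, and 18.9 and 23.1 CPM in native bladder. Both control neobladder libraries stood above the other 6, whose groups overlapped. Experimental against control neobladder gave a log2 fold change of -1.50 (SE 0.362, adjusted p = 0.0152). The call was lost on library totals alone (-0.75, adjusted p = 0.291), with the 2 groups alone (adjusted p = 0.0581), and without experimental replicate 1 (adjusted p = 0.0766) or 2 (adjusted p = 0.174).

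CFTR is the channel, opened by cyclic nucleotide signals, through which intestinal cells release chloride and bicarbonate (ENSSSCG00000016626, chromosome 18, 28627717 to 28818209). CFTR had 12 and 1 counts (1.02 and 0.0927 CPM) in experimental neobladder, 329 and 79 counts (35.8 and 14.8 CPM) in control neobladder, 3 and 3 counts (0.306 and 0.267 CPM) in peritoneum, and 3 and 1 counts (0.242 and 0.0747 CPM) in native bladder. Both control neobladder libraries stood above the other 6, in which the gene was near the counting limit. The log2 fold change of experimental over control neobladder was -5.46 (SE 0.873, adjusted p = 0.00182).

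The 4 genes CA4, SLC26A3, SLC26A6 and CFTR were called lower under all 14 alternatives, whereas SLC4A4 was called under 10. Of the 4, CFTR had to differ through the filter, as stated above. Scaling shifted the background: on library totals alone the median of all tested genes in this comparison was 0.89 in place of 0.11, and 77.1% of calls were higher in place of 48%. The count of members called lower was then 4. The counting's strand setting is not given in the sources used here, so reads of CA4, CA12 and SLC4A4 cannot be told apart from those of the genes that overlap them.

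**Figure D2:**
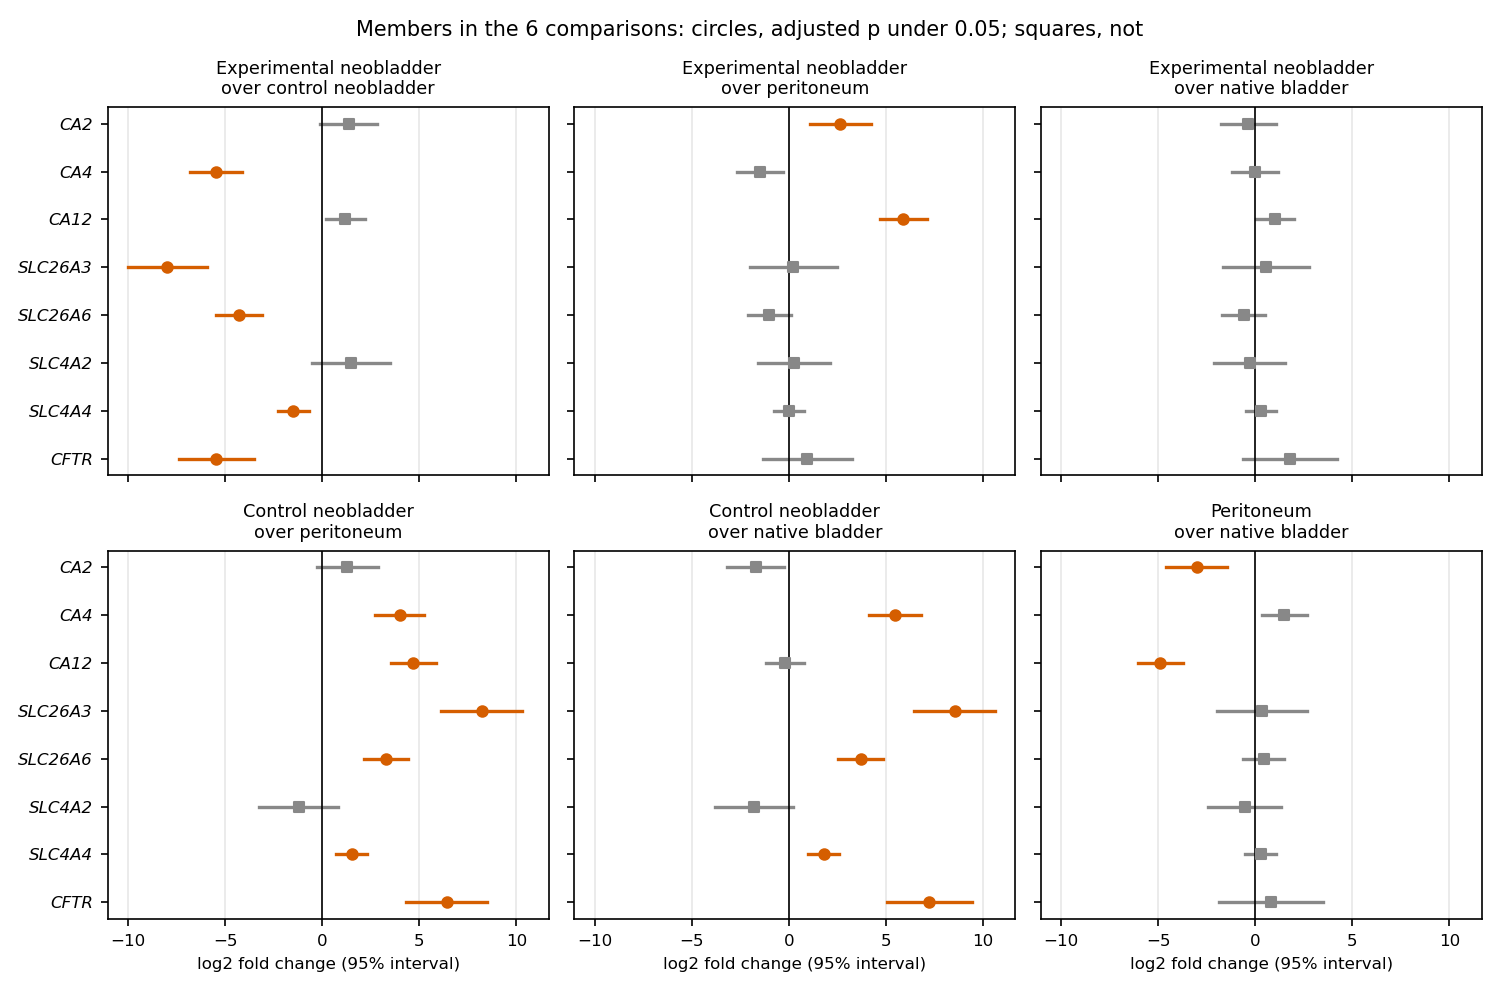
Log2 fold change with its 95% interval for the 8 tested genes in the 6 comparisons, the first-named tissue over the second in each panel; circles passed an adjusted p under 0.05 and squares did not. In experimental over control neobladder, CA4, SLC26A3, SLC26A6, SLC4A4 and CFTR lie below 0, and in experimental neobladder over native bladder none passed.

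Intestinal, urothelial and smooth muscle markers moved with these differences. All 10 enterocyte genes found, of 12 listed, were called lower in the experimental than in the control neobladder, and all 8 urothelial genes higher. In this comparison 11.3% of all tested genes were called lower and 10.4% higher. Of the 10 enterocyte genes, FABP2, APOA4, SLC10A2, SI and CDX2 passed the filter on low counts through the control neobladder alone and had to differ. CDX2, the factor that sets intestinal identity, was at 0 in both experimental and both native bladder libraries. The goblet and crypt genes summed to 741 and 110.0 CPM in experimental neobladder and 15568 and 30051 CPM in control neobladder, with SPDEF at 0 in experimental replicate 2. Of these genes 5 of 7 were called lower and 0 higher, and ASCL2 passed the filter through the control neobladder alone. The experimental sum was nearly all TFF3, at 107 to 736 CPM. In native bladder TFF3 had a mean of 399 CPM and the sum was 346 to 465 CPM. The 7 smooth muscle genes summed to 5330 to 6151 CPM in experimental neobladder and 1048 CPM in both control neobladder libraries, and 5 of 7 were called higher (median log2 fold change 1.99). The share of the differences in CA4, SLC26A3, SLC26A6, SLC4A4 and CFTR that goes with these cell types was not tested.

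The control neobladder libraries also differed from each other. Replicate 1 exceeded replicate 2 by 2.13-fold in SLC26A3, 2.89-fold in SLC26A6, 2.42-fold in CFTR, 2.30-fold in CA12, 1.32-fold in SLC4A4 and 1.27-fold in CA4. The ratio was 1.8 in CA2, and 7.56 in SLC4A2, which had 13 and 1 counts. The enterocyte sum went the other way, with a ratio of 0.290 that rested on the bile acid binding protein gene FABP6, and without it the ratio was 1.89. Without FABP6 the sum was 165 to 181 CPM in experimental neobladder and 9002 to 16988 CPM in control neobladder. The goblet and crypt sum was also higher in control replicate 2, with a ratio of 0.518.

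Endothelial genes and hypoxia genes were tracked because CA4 is also made by capillary endothelium and CA9 and CA12 respond to low oxygen in other settings. The 7 endothelial genes found summed to 615 to 676 CPM in experimental neobladder and 217 to 319 CPM in control neobladder. Of the 7, 2 were called higher, where 10.4% of all tested genes were higher, and CA4 was lower. In peritoneum these 7 genes summed to 2144 to 2912 CPM. Against peritoneum 6 of 7 were called lower in experimental neobladder, where 11.8% of all tested genes were lower, and CA4 had a lower mean. The 8 hypoxia genes found summed to 1344 to 1373 CPM in experimental neobladder and 2076 to 2559 CPM in control neobladder, a sum that rested on LDHA, at 677 CPM and 1681 CPM. Without LDHA it was 678 to 685 CPM in experimental neobladder and 605 to 667 CPM in control neobladder, and the median log2 fold change of the 8 was 0.31. All 8 missed the threshold in edgeR, LDHA with adjusted p = 0.0624. An unadjusted p under 0.05 was found for 3 of the 8, and for 5952 of all 16549 tested genes. The part of endothelium or low oxygen in the levels of CA4 and CA12 was not tested.

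Against native bladder, the comparison that asks how near the experimental mucosa came to the organ it stands in for, no member passed. By edgeR 0 of 8 were called, where 0.0967% of all tested genes were called in either direction. DESeq2 also called 0, where it called 238 of all 16228 genes. Of the 8, only CA12 had an unadjusted p under 0.05 by edgeR, where 1326 of all 16549 tested genes did. The log2 fold change of CA12 was 1.01 with a 95% interval from 0.02 to 2.00 (adjusted p = 0.606). CA12 passed with the 2 groups alone (adjusted p = 0.0351), without control replicate 1 (adjusted p = 0.0356) and without control replicate 2 (adjusted p = 0.0374). With so few calls among all genes, a missed threshold does not show that levels were alike. The interval for CA4 ran from -1.18 to 1.18, that for SLC4A4 from -0.49 to 1.08, that for SLC26A6 from -1.69 to 0.51 and that for CA2 from -1.76 to 1.06 on the log2 scale. The intervals of SLC26A3, from -1.67 to 2.79, and of CFTR, from -0.63 to 4.19, were wide because of their low counts.

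Against normal peritoneum, the kind of tissue that the title names as the replacement, 2 of 8 genes were called higher in the experimental neobladder and 0 lower, where 12.4% of all tested genes were higher and 11.8% lower. CA12 was 59.7-fold higher (log2 fold change 5.90, SE 0.551, adjusted p = 8.02e-05) and was called under all 14 alternatives. CA2 was 6.31-fold higher (log2 fold change 2.66, SE 0.703, adjusted p = 0.0207). The CA2 call was lost on library totals alone (adjusted p = 0.0603), without experimental replicate 1 (1.24, adjusted p = 0.261), and without peritoneum replicate 1 (adjusted p = 0.105) or 2 (adjusted p = 0.0759). CA4 had a log2 fold change of -1.49 (adjusted p = 0.0641), which passed in 7 of 14 alternatives, DESeq2 among them (adjusted p = 0.0275). SLC26A3, SLC4A4, SLC4A2 and CFTR overlapped between the groups and were not called. Without control replicate 2, the log2 fold change was -0.99 for SLC26A6 and -1.46 for CA4, against -1.01 and -1.49 with all libraries.

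**Figure D3:**
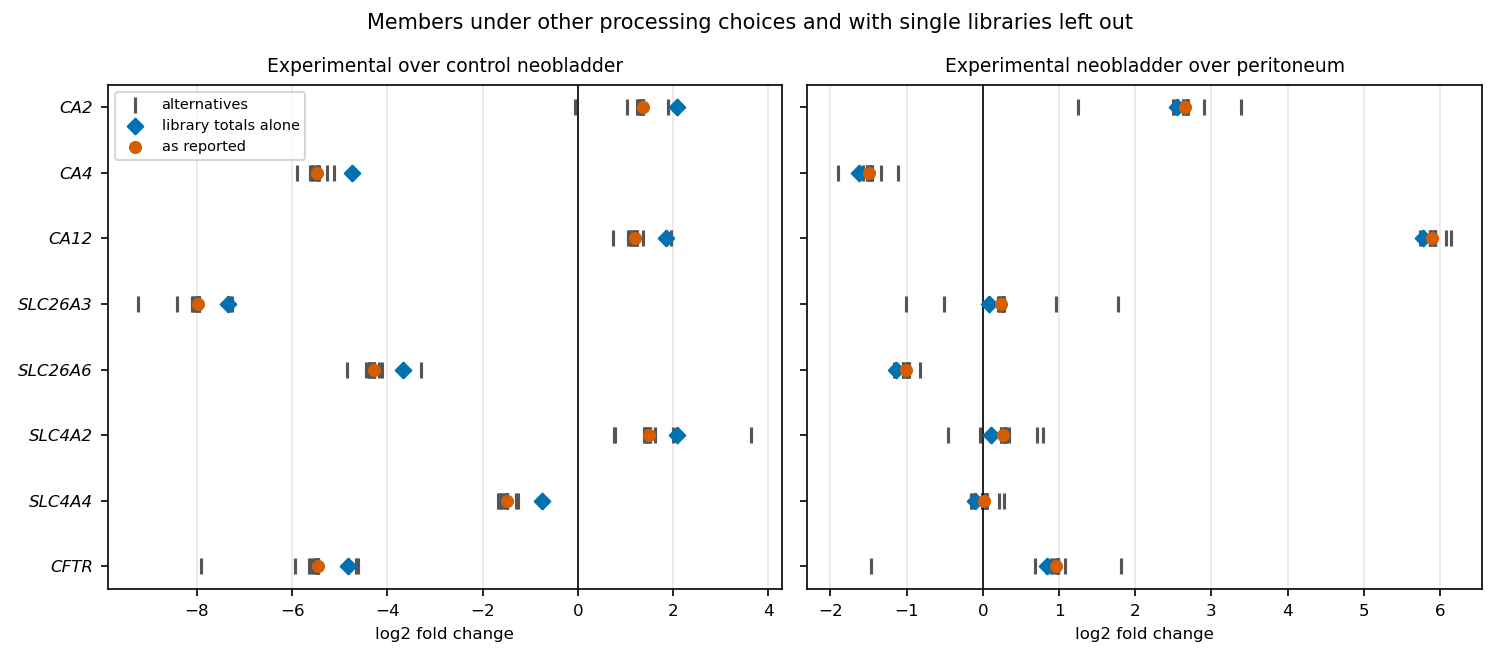
Log2 fold change of the 8 tested genes for experimental over control neobladder and for experimental neobladder over peritoneum, as reported, on library totals alone, and under the other alternatives, each a tick. CA4, SLC26A3, SLC26A6 and CFTR stay below 0 in the first panel, where CA2 runs from -0.069 to 2.08, and CA12 stays above 5.7 in the second.

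The control neobladder was also set against native bladder. CA4, SLC26A3, SLC26A6, SLC4A4 and CFTR, 5 of 8, were called higher in the control neobladder, where 11.2% of all tested genes were higher and 11.1% lower, and 0 of the 8 were called lower. Log2 fold changes were 5.47 for CA4 (adjusted p = 0.000215), 8.54 for SLC26A3 (adjusted p = 0.000222), 3.70 for SLC26A6 (adjusted p = 0.000872), 7.24 for CFTR (adjusted p = 0.000738) and 1.79 for SLC4A4 (adjusted p = 0.00655). These values and those of experimental against control neobladder rest on the same 2 control libraries. CFTR passed the filter on low counts through those libraries alone, so here too it had to differ. The SLC4A4 call was lost on library totals alone (0.96, adjusted p = 0.179) and without native bladder replicate 1 (adjusted p = 0.0974) or 2 (adjusted p = 0.0524). CA2 was at a mean of 5.76 CPM in control neobladder and 19.1 CPM in native bladder (log2 fold change -1.71, adjusted p = 0.0911), without overlap between the libraries, and passed in 3 of 14 alternatives (adjusted p from 0.0112 to 0.0485). SLC4A2 gave -1.78 (adjusted p = 0.179), and -3.93 without control replicate 1 (adjusted p = 0.0391). CA12 gave -0.19 (adjusted p = 0.790), and -0.93 without control replicate 1 (adjusted p = 0.0183).

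In control neobladder against peritoneum, 6 of 8 were called higher and 0 lower, where 21.6% of all tested genes were higher and 20.6% lower. They were the same 5 genes and CA12, which was 26.0-fold higher (log2 fold change 4.70, SE 0.523, adjusted p = 0.000104). SLC26A3 gave 8.22 (adjusted p = 0.000124), CFTR 6.42 (adjusted p = 0.00054), CA4 3.98 (adjusted p = 0.000409), SLC26A6 3.27 (adjusted p = 0.00079) and SLC4A4 1.51 (adjusted p = 0.00769). Of these, CFTR again had to differ, having passed the filter through the control neobladder alone. The SLC4A4 call was lost on library totals alone (0.64, adjusted p = 0.329) and without peritoneum replicate 1 (adjusted p = 0.0763).

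The unoperated tissues differed in 2 of 8 genes. CA12 was 29.6-fold lower in peritoneum than in native bladder (log2 fold change -4.89, SE 0.527, adjusted p = 0.000216) and CA2 8.07-fold lower (log2 fold change -3.01, SE 0.709, adjusted p = 0.0135), where 11.1% of all tested genes were lower and 9.93% higher. The CA2 call was lost without native bladder replicate 2 (adjusted p = 0.0781) and without peritoneum replicate 1 (adjusted p = 0.0805) or 2 (adjusted p = 0.0582). CA4, at a mean of 14.2 CPM in peritoneum and 5.07 CPM in native bladder, gave 1.49 (adjusted p = 0.0690). It passed in 4 of 14 alternatives, DESeq2 (adjusted p = 0.0276) and the fit without native bladder replicate 1 (2.54, adjusted p = 0.0321) among them.

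Ordered by mean level, CA4 and SLC26A6 ran from control neobladder through peritoneum and native bladder to experimental neobladder, and SLC26A3, SLC4A4 and CFTR from control neobladder through experimental neobladder and peritoneum to native bladder. In these 5 genes the control neobladder differed from its neighbour by the test, and no later pair of neighbours passed it. CA12 ran from experimental neobladder through native bladder and control neobladder to peritoneum, and of these steps the last passed. CA2 and SLC4A2 ran from native bladder through experimental neobladder, the first to control neobladder and then peritoneum and the second in the other order, and no pair of neighbours passed the test.

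The other genes of the pathway were followed in 5 lists, of which 58 of 63 genes were found and 46 tested. In experimental against control neobladder, 10 of the 46 were higher and 15 lower, where 10.4% of all tested genes were higher and 11.3% lower, with a median log2 fold change of -0.71. Through the control neobladder alone 7 of the 46 passed the filter, PDZK1 among them, and 6 of these 7 were called lower. The medians of these lists were the same with genes at 0 counts in a group set to the bound that 3 counts give. Fewer genes of the lists were called when either experimental library was left out, as was so among all tested genes.

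Of the other carbonic anhydrases, 7 were tested, 1 was higher and 3 lower (median log2 fold change -1.11). Of all tested genes, 10.4% were higher and 11.3% lower. The cytosolic CA7 was at 0.678 and 0.278 CPM in experimental neobladder and 241 and 336 CPM in control neobladder, with 0 counts in peritoneum. CA7 passed the filter through the control neobladder alone and had to differ (log2 fold change -9.18). CA13, another cytosolic enzyme, fell to 12.0 ± 2.99 CPM in experimental neobladder, against 53.0 ± 18.7 CPM in control neobladder (SD, n = 2 each), a call lost on library totals (adjusted p = 0.125) and without experimental replicate 1 (adjusted p = 0.0515) or 2 (adjusted p = 0.124). The mitochondrial enzyme CA5A was at 0.440 CPM in experimental neobladder and 3.59 CPM in control neobladder (adjusted p = 0.0295), and the membrane enzyme CA14 at 3.20 CPM and 0.163 CPM (adjusted p = 0.0233), with 3 counts in the control libraries. The CA5A call was lost on library totals (adjusted p = 0.101) and when any experimental, control or native bladder library was left out (adjusted p from 0.0551 to 0.208), and the CA14 call without experimental replicate 2 (adjusted p = 0.156) or control replicate 2 (adjusted p = 0.0604). CA8, a relative without catalytic activity, stood at 34.9 ± 24.8 CPM in experimental neobladder and 75.1 ± 4.77 CPM in control neobladder (SD, n = 2 each) and did not pass. The log2 fold change of CA8 was -1.11, and it ran from -2.09 to -0.31 over the 14 alternatives.

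The other SLC4 and SLC26 carriers gave 1 call in each list, where 10.4% of all tested genes were higher and 11.3% lower. Of 6 SLC4 genes tested, 1 was higher and 0 lower (median 1.74), SLC4A9, at 7.76 CPM in experimental neobladder and 0.617 CPM in control neobladder (log2 fold change 3.81, adjusted p = 0.0122). The SLC4A9 call was lost without experimental replicate 2 (adjusted p = 0.0613). The electroneutral sodium-bicarbonate cotransporter SLC4A7 had the highest mean of that list, at 58.4 and 24.8 CPM in experimental and control neobladder (adjusted p = 0.0989). The log2 fold change of SLC4A7 was 1.23, and it ran from 0.80 to 1.90 over the 14 alternatives. Of 3 SLC26 genes tested, 1 was higher, the sulfate carrier SLC26A2, at 10.4 and 3.15 CPM in experimental and control neobladder (log2 fold change 1.72, adjusted p = 0.0475). That call was lost in DESeq2's size factors (adjusted p = 0.0587), with the 2 groups alone (adjusted p = 0.0761), and without experimental replicate 1, experimental replicate 2, control replicate 2 or either native bladder library (adjusted p from 0.0740 to 0.216).

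Of 16 chloride secretion genes tested, 9 were lower and 2 higher in experimental than in control neobladder (median -1.62). Of all tested genes, 11.3% were lower and 10.4% higher. Among the 16, BEST4, GUCA2B and PDZK1 passed the filter through the control neobladder alone, so a lower level was built in. PDZK1, a scaffold of the brush border that binds apical transporters, was at 0.254 and 0.185 CPM in experimental neobladder and 601 and 499 CPM in control neobladder, a log2 fold change of -11.20. VIPR1, a receptor for the secretagogue vasoactive intestinal peptide, was at 1.89 CPM in experimental neobladder and 61.1 CPM in control neobladder (log2 fold change -5.01, adjusted p = 0.000395). CLCA1, a protein secreted by goblet cells, had the highest mean of the list, with 80.5 and 11.3 CPM in experimental neobladder and 10345 and 1672 CPM in control neobladder (log2 fold change -7.03, adjusted p = 0.00322). The guanylin receptor GUCY2C was at 50.9 CPM in experimental neobladder and 188 CPM in control neobladder (log2 fold change -1.89, adjusted p = 0.0286), a call lost on library totals (adjusted p = 0.193), with the 2 groups alone (adjusted p = 0.0854), without either experimental library (adjusted p = 0.0537 and adjusted p = 0.239) and without control replicate 1 (adjusted p = 0.0662).

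The genes of that list that were higher were CLCA2 and ANO1. CLCA2, of the same family as CLCA1, was at 177 and 133 CPM in experimental neobladder and 16.8 and 6.56 CPM in control neobladder (log2 fold change 3.71, adjusted p = 0.00271). ANO1, a chloride channel opened by calcium, was at 33.2 CPM in experimental neobladder and 6.23 CPM in control neobladder (log2 fold change 2.38, adjusted p = 0.0164), a call lost without experimental replicate 2 (adjusted p = 0.121) or control replicate 2 (adjusted p = 0.0598). The basolateral sodium-potassium-chloride cotransporter SLC12A2, at 9.17 CPM in experimental neobladder and 23.3 CPM in control neobladder (adjusted p = 0.0472), lost its call in 10 of 14 alternatives.

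Of 14 proton and ammonium transport genes tested, 5 were higher and 3 lower (median 1.48), where 10.4% of all tested genes were higher and 11.3% lower. The sodium-proton exchanger SLC9A4 was at 253 and 109 CPM in experimental neobladder, 0.544 and 0.749 CPM in control neobladder, 0 and 0.178 CPM in peritoneum, and 180.3 and 199 CPM in native bladder. It was high in experimental neobladder and native bladder and near 0 in the others, with a log2 fold change of 8.14 over control neobladder (adjusted p = 6.9e-05). The related SLC9A3, the apical exchanger of intestine and kidney, was at 0.355 CPM in experimental neobladder and 8.97 CPM in control neobladder (log2 fold change -4.62, adjusted p = 0.0105), with a call lost without either experimental library (adjusted p = 0.0813 and adjusted p = 0.0893) or control replicate 1 (adjusted p = 0.0539). Subunits of the vacuolar proton pump went both ways: ATP6V0A4 was at 8.18 CPM in experimental neobladder and 0.296 CPM in control neobladder (log2 fold change 4.80, adjusted p = 0.0048), and ATP6V1A at 13.7 CPM and 74.8 CPM (log2 fold change -2.45, adjusted p = 0.00994). The ATP6V1A call was lost on library totals (adjusted p = 0.0877) and without experimental replicate 1 (adjusted p = 0.0531) or 2 (adjusted p = 0.106). ATP4B, the beta subunit of the gastric proton pump, had 1 count in the experimental libraries and 92 in the control libraries. SLC9A3 and ATP4B passed the filter through the control neobladder alone and had to differ. ATP6V1B2, the pump subunit with the highest mean of the list, was at 156 ± 7.07 CPM in experimental neobladder and 158 ± 14.5 CPM in control neobladder (SD, n = 2 each). It was not called (adjusted p = 0.976).

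**Figure D4:**
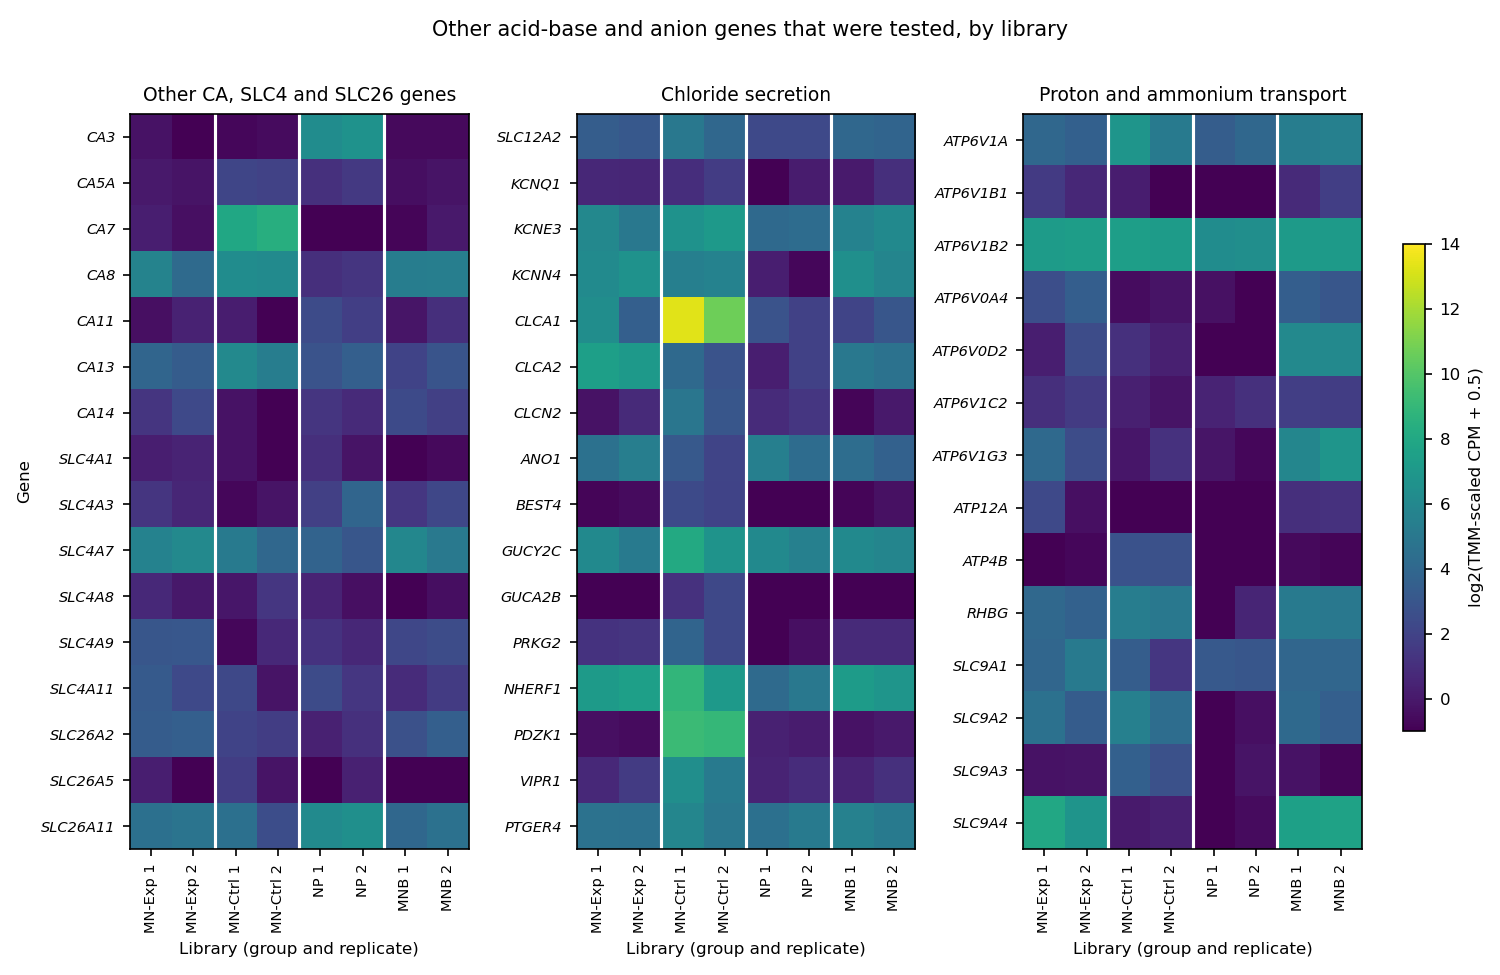
Levels of the 46 other tested genes in each library, as log2 of TMM-scaled CPM plus 0.5, with columns for the libraries of experimental neobladder, control neobladder, peritoneum and native bladder from left to right. CA7, PDZK1 and CLCA1 are bright in the control neobladder columns, CA3 in the peritoneum columns, SLC9A4 in the experimental neobladder and native bladder columns, and ATP6V0D2 in the native bladder columns.

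Against native bladder, edgeR called 0 of the 46 genes in experimental neobladder. An unadjusted p under 0.05 was found for 6 of them, and for 1326 of all 16549 tested genes. DESeq2 called 4, where it called 238 of all 16228 genes. The alternatives called 0 to 5, with 5 in the fit without the low-count filter, where 352 of all 26617 genes were called. The 6 with an unadjusted p under 0.05 were named after their values were seen. ATP6V0D2, a subunit of the vacuolar proton pump, was at 0.678 and 5.19 CPM in experimental neobladder and 66.8 and 66.1 CPM in native bladder (log2 fold change -4.51, adjusted p = 0.0955). It passed in 3 of 14 alternatives, DESeq2 among them (adjusted p = 8.59e-06). ATP6V1G3, another subunit, was at 17.0 and 5.10 CPM in experimental neobladder and 57.8 and 111 CPM in native bladder (log2 fold change -2.93, adjusted p = 0.197), and passed in DESeq2 (adjusted p = 0.00709). Both libraries of the experimental neobladder stood below both of native bladder for these subunits and for ATP6V1A, at 13.7 CPM and 43.8 CPM. CLCA2 averaged 155 CPM in experimental neobladder and 28.1 CPM in native bladder, CLCA1 45.9 CPM and 5.59 CPM, and CA13 12.0 CPM and 5.25 CPM, none past the threshold as reported. CLCA2 passed in 5 of 14 alternatives (adjusted p = 0.00709 in DESeq2), ATP6V1A in 4 and CLCA1 in 2 (adjusted p = 0.0375 in DESeq2).

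In experimental neobladder against peritoneum, 18 of the 46 were higher and 1 lower, where 12.4% of all tested genes were higher and 11.8% lower. The lower gene was CA3, a cytosolic enzyme of muscle and fat cells that passed the filter through peritoneum alone, at 0.170 ± 0.240 CPM in experimental neobladder and 89.5 ± 16.7 CPM in peritoneum (SD, n = 2 each). CA8 was at 34.9 CPM in experimental neobladder and 1.74 CPM in peritoneum (log2 fold change 4.31, adjusted p = 0.000493), and the potassium channel KCNN4 at 84.8 CPM and 0.401 CPM (log2 fold change 7.73, adjusted p = 6.23e-05). NHERF1, a scaffold that binds CFTR, was at 159 CPM in experimental neobladder and 24.5 CPM in peritoneum (log2 fold change 2.70, adjusted p = 0.00734, lost in 1 of 14 alternatives). In peritoneum against native bladder, 2 of the 46 were higher, CA3 and SLC26A11, and 17 lower, where 9.93% of all tested genes were higher and 11.1% lower. SLC26A11 was at 80.0 ± 12.1 CPM in peritoneum and 19.8 ± 5.93 CPM in native bladder (SD, n = 2 each), with a log2 fold change of 2.01 (adjusted p = 0.0284). That call was lost on library totals and without any 1 of these 4 libraries (adjusted p from 0.0675 to 0.222).

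In control neobladder against native bladder 12 of the 46 were higher and 7 lower (11.2% and 11.1% of all tested genes), and against peritoneum 23 were higher and 6 lower (21.6% and 20.6%). Of the 46, 7 passed the filter through the control neobladder alone, so a call of these as higher there was built in. They include CA7 and PDZK1, which gave log2 fold changes over native bladder of 9.82 and 10.30.

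The genes most like each member called in experimental against control neobladder were found by Pearson correlation of log2 CPM over the 8 libraries, among 9865 named genes with a mean of 5 CPM or more. The values describe a pattern in which 2 control libraries stand apart from 6 others that share less of the signal. For CA4 they were ORMDL3, NAALADL1 and F8 (r = 0.98 each). For SLC26A3 they were KIAA1191, SLC39A4 and CCL25 (r from 0.982 to 0.984), and for SLC26A6 FZD5, ANPEP and NUDT12 (r from 0.989 to 0.99). For SLC4A4 they were UBE2J1, SLC28A1 and APOB (r from 0.988 to 0.992), and for CFTR PTGER2, EPS8L3 and ISX (r from 0.99 to 0.995).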

How the data were processed

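The authors deposited raw counts of reads per Ensembl gene for each library. Per the submitters' processing notes the tools were Trim Galore, HISAT2 and HTSeq 0.11.1, with the Sscrofa11.1 build. Per the labels' protocols, Smart-seq2 gave the complementary DNA and an Illumina TruSeq kit the libraries, from total RNA. Aligner settings and the annotation release are not given in the sources used here. Gene symbols were matched for 15029 of 31907 rows, and gene spans came from RefSeq's table of the same assembly.

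Tests were run in edgeR 4.0.16 under R 4.3.3. Genes passed filterByExpr, libraries were scaled by TMM, and all 4 groups put in 1 robust quasi-likelihood fit with 4 residual degrees of freedom. The 6 pairwise comparisons were called at a Benjamini-Hochberg adjusted p under 0.05 over all 16549 genes. The standard error is the log2 fold change divided by the square root of the test's F. The steps were also run on counts simulated from a shared mean profile with a single dispersion, with genes changed only in the experimental neobladder. The low scaling factors and wide spread of the control libraries were not simulated, so that run does not bear on them. Replicates differed by more than sampling noise, so none was merged.

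Alternatives were library totals without TMM, DESeq2 size factors, the DESeq2 1.42.0 test, a fit without the filter, a fit of only the 2 groups compared, a block for replicate number, and leaving out each library. Members and lists were chosen with earlier results of these data known. Each list names up to 4 genes with the smallest p in experimental against control neobladder and its most abundant gene. GUCY2C, SLC12A2, ANO1, SLC9A3, CA8, CA3, KCNN4, NHERF1, ATP6V0D2, ATP6V1G3 and the sums without FABP6 or LDHA were chosen after values were seen. A marker sum for red blood cells is not reported here.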

Additional observations from a re-analysis of the deposited data

How the results depend on the processing

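CA4, SLC26A3, SLC26A6 and CFTR kept their calls in experimental against control neobladder under every alternative run, though CFTR had to differ through the filter. The count of members called was 5 as reported there and 4 to 6 with a library left out, 5 and 4 to 7 for control neobladder against native bladder, and 6 and 5 to 6 for control neobladder against peritoneum. Against native bladder the experimental count was 0, then 1 with the 2 groups alone and 0 to 1 with a library left out. Against peritoneum it was 2, then 1 on library totals and 1 to 4 with a library left out. For peritoneum against native bladder it was 2, and 1 to 3 with a library left out.

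Signs turned in uncalled log2 fold changes. In experimental against control neobladder ATP6V1B2 gave 0.75 on library totals and -0.10 to 0.10 with a library left out, and CA2 -0.069 to 2.08. In experimental neobladder against native bladder CA4 gave 0.016 with DESeq2 or its size factors and 0.080 with the block. With a library left out there, CA4 ran from -0.61 to 1.08, CA2 from -1.79 to 0.36, SLC26A3 from -0.70 to 2.79, CFTR from -0.67 to 2.73 and SLC4A2 from -1.04 to 0.21. CA12 ran from -0.93 to 0.29 in control neobladder against native bladder. In experimental neobladder against peritoneum SLC4A4 gave -0.012 with DESeq2 or its size factors and -0.11 on library totals. With a library left out there, SLC4A4 ran from -0.15 to 0.27, SLC26A3 from -1.004 to 1.78, CFTR from -1.47 to 1.82 and SLC4A2 from -0.46 to 0.79. SLC26A3 ran from -1.21 to 2.53 in peritoneum against native bladder. The cause was not tested.

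The replicate block left the members called at 5, 0, 5, 2, 6 and 2 in the 6 comparisons, and no member gained or lost a call. It took the pathway genes called in experimental against control neobladder to 19, against 25 as reported, with CA5A (adjusted p = 0.0532), SLC12A2 (0.0606) and SLC26A2 (0.0633) among the calls lost. Deviations of same-numbered libraries correlated at -0.0795 to 0.0911 over genes. With 2 libraries a group from different tissues, this cannot show whether same-numbered libraries share an animal or batch. On library totals the median of all genes was -0.97 in control neobladder against native bladder (18.7% of calls higher, 50.4% as reported) and -0.96 against peritoneum (24.9% and 51.2%). Calls over all genes ran from 1396 to 6358 in experimental against control neobladder (3584 as reported), 3 to 453 against native bladder (16), 1762 to 6444 against peritoneum (3998), 1442 to 6485 in control neobladder against native bladder (3686) and 1343 to 5803 in peritoneum against native bladder (3486). SLC4A2, and SLC26A3 and CFTR outside the control neobladder, are limited by their few counts.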
